A study of Mus musculus with 7 samples.

Results

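Radial glia are the apical stem cells of the developing cerebral cortex, and 10 genes that mark their identity were followed here in mouse cortical cells in which Trnp1 had been knocked down. The genes are Fabp7, Vim, Nes, Slc1a3, Prom1, Sox2, Sox9, Mfge8, Ednrb and Ddah1. Each was read from the array's probe set that carries that gene symbol alone, and all 10 were found among the 19938 genes measured, each with 1 such probe set. Expression had been measured on 7 Affymetrix arrays, 1 per sample, from embryos of strain C57BL/6. In all groups the cortex was electroporated on embryonic day 13 with a construct that also carried green fluorescent protein, and fluorescent cells were sorted 24 h later, on embryonic day 14. The 3 knockdown samples have the genotype label Trnp1 knockdown, and the 4 control samples have the genotype label WT. The samples of each group are labelled as biological replicates, the number of embryos behind each is not stated, and the sex was not determined.

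Radial glia line the ventricle, divide there, and extend a long basal fibre to the surface of the brain along which newborn neurons migrate. They combine features of epithelium, such as an apical membrane with a cilium, with features of later astrocytes, such as glutamate transporters and fatty acid-binding proteins. They give rise to neurons directly or through intermediate progenitors. Trnp1 is a nuclear protein of these progenitors. The comparison asks whether the identity genes of radial glia differ in level 1 day after Trnp1 is lowered.

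The promoters of 4 of the genes are shown, picked by their values, though none of these genes passed a test after adjustment. Prom1 was the only one of the 10 genes whose groups did not overlap, where 5.67% of all genes did not overlap. Sox2, Nes and Slc1a3 were in the pairs of genes with the highest correlations over all arrays. RefSeq promoter sequences of build GRCm38.p6 were found for 9 of the 10 genes, with 2 start sites for Prom1, and not for Sox9. Each window runs from 250 bases before the start site to 50 after it, and the upstream of the 2 Prom1 windows is printed. Capitals mark a match on either strand. The motifs searched were the TATA box core TATAAA, the box CCAAT, the core GGGCGG of the box that Sp1 binds, the Sox element ACAAAG with its variant ACAATG, the core TGGGAA of sites of the Notch effector Rbpj, and the element ATGCAAA of POU factors, and no match overlapped another in these windows.
Prom1, chr5:44101687-44101986, minus strand: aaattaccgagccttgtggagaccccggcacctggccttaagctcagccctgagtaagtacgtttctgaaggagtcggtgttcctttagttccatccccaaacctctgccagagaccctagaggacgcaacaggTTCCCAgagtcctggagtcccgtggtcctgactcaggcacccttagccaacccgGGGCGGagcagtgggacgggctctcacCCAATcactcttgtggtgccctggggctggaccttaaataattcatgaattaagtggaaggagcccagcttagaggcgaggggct
Sox2, chr3:34649745-34650044, plus strand: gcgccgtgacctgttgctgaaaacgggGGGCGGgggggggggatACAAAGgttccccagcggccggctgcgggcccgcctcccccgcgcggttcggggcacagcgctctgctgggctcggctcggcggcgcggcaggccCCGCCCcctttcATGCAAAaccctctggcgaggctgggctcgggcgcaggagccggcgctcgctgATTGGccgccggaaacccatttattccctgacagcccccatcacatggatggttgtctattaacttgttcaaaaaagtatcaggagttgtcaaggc
Nes, chr3:87970843-87971142, plus strand: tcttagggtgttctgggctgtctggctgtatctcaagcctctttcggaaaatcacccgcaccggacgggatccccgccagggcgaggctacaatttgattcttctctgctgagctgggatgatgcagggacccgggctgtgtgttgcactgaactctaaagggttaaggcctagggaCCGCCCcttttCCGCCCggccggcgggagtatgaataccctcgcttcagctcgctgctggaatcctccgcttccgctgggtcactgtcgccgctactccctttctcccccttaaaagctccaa
Slc1a3, chr15:8710758-8711057, minus strand: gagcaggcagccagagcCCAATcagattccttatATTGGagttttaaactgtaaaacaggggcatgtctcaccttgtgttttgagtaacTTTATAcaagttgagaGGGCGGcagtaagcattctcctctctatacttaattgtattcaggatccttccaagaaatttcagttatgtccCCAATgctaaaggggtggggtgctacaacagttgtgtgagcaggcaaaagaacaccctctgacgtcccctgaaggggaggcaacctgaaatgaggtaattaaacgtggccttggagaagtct

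Positions of matches are given by their first printed base, relative to the start site. Prom1 held CCAAT at -35, GGGCGG at -62 and TGGGAA at -116. Sox2 held the POU element at -99, a Sox element at -206 and CCAAT at -46, and Nes held only a pair of GC boxes, at -73 and -62. Over the 10 windows found for the 10 genes, CCAAT was present in 6, where 37.4% of all 32851 RefSeq promoter windows of this length hold it, and GGGCGG in 5, against 35.7% of all windows. TATAAA was present in 2 (Vim and Slc1a3), against 13.6% of all windows, TGGGAA in 3 against 25.6%, ACAAAG in 1 against 18.7%, ATGCAAA in 1 against 4.63% and ACAATG in 0 against 12.6%. A match is a description of these letters and not a site of binding.

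Over all 35556 probe sets the median log2 value of an array was 4.40 to 4.61, highest in knockdown replicate 3. Trnp1 was lower in the samples labelled as knockdown, at 4.80, 4.85 and 4.55 in knockdown arrays against 5.07, 4.999, 5.24 and 5.22 in control arrays, a log2 difference of -0.40 (SE 0.12, limma adjusted p = 0.825). The samples also differed in markers of cells other than cortical progenitors and neurons. The mean log2 level of 4 choroid plexus markers was 7.44 in knockdown replicate 2, 9.08 in control replicate 4 and 5.35 in control replicate 3, and 3.82 to 3.95 in the other arrays. The mean of 8 endothelial and mural markers was 7.34, 6.13 and 5.10 in the knockdown arrays, against 6.57 in control replicate 4 and 4.21 to 4.61 in the other control arrays. The mean of 6 microglia markers was highest in control replicate 4, at 8.64, and in knockdown replicate 2, at 7.97. The mean of 6 interneuron markers was 4.90, 6.82 and 4.66 in the knockdown arrays, against 4.20 to 4.56 in the control arrays. Markers of later glia stayed dim in all arrays: the 4 astrocyte markers, Gfap among them, had mean levels of 3.34 to 3.95, and the 5 oligodendrocyte precursor markers 3.96 to 4.49.

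None of the 10 radial glia genes passed the test in knockdown samples. By limma, 0 of the 10 passed an adjusted p of 0.05, as did 0 of all 19938 genes (0%), and 1, Prom1, had an unadjusted p under 0.05, with the lower level in knockdown samples. At that p 5.81% of all genes differed, 2.2% higher and 3.61% lower. There were 5 genes with a positive and 5 with a negative difference, and of all genes 49.8% had a positive and 50.2% a negative one, and of the 5 negative ones those of Sox2, Sox9 and Ednrb were positive after a further quantile or cyclic loess normalization. The log2 differences ran from -0.47 for Prom1 to 0.29 for Vim, with a median of 0.06, beside a median of -0.001 over all genes tested. The groups overlapped for 9 of the 10 genes, and for 1 gene every knockdown array was lower than every control array. Of all genes 3.07% were separated in this way, and 2.59% with the knockdown arrays on top. In bulk samples, fewer radial glia and less of a transcript in each radial glial cell cannot be told apart.

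**Figure D1:**
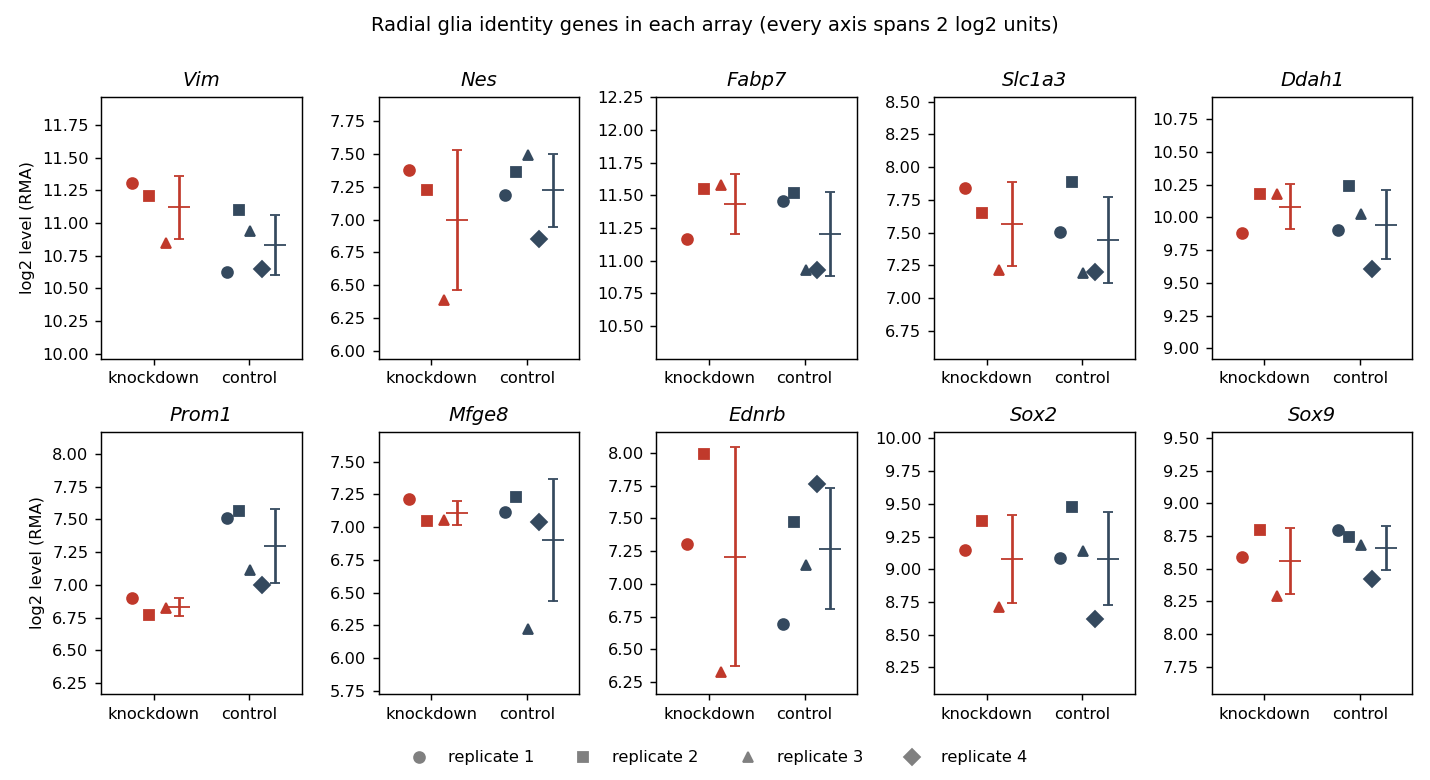
Log2 level (vertical axis, RMA units) of each of the 10 radial glia genes in the 3 knockdown arrays (red, left) and the 4 control arrays (dark blue, right), with marker shape for the replicate number and the mean and SD beside the points. The groups overlap in every panel except that of Prom1, where the knockdown arrays lie at 6.77 to 6.90 and the control arrays at 6.997 to 7.57.

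Prom1 encodes prominin 1 (CD133), a pentaspan membrane glycoprotein of apical protrusions and the primary cilium of neural progenitors. Its log2 level was 6.90, 6.77 and 6.82 in the knockdown arrays, against 7.51, 7.57, 7.11 and 6.997 in the control arrays. The knockdown arrays lay close together and below all control arrays, while the control arrays fell into a higher and a lower pair, so the spread was wider in controls (SD 0.283, n = 4) than in knockdown samples (SD 0.0665, n = 3). The difference was -0.47 (SE 0.17, 95% interval -0.85 to -0.08), which puts the signal of knockdown samples at 72.4% of that of controls (55.3% to 94.7%). It did not pass over all genes (limma adjusted p = 0.825), and by the exact permutation test (two-sided, 35 possible splits) p was 0.0571, where 0.0286 is the smallest the splits allow. Prom1 had rank 541 of all genes by p.

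Vimentin, encoded by Vim, and nestin, encoded by Nes, are intermediate filament proteins that fill the radial fibre. Vim stood at 11.30, 11.21 and 10.85 in the knockdown arrays, against 10.63, 11.10, 10.94 and 10.65 in the control arrays. Of the 3 knockdown arrays, 2 lay above all controls and the third among them. The difference was 0.29 (SE 0.17, 95% interval -0.11 to 0.69; limma adjusted p = 0.825; exact permutation p = 0.143). Vim is also expressed by endothelial, mural and microglial cells, and its highest array, knockdown replicate 1, was also the highest for the 8 endothelial and mural markers, whose mean there was 2.35 log2 units above the control mean. Control replicate 4, second for these markers and highest for the microglia markers, had the second lowest Vim level. The part of those cells in the Vim level was not tested.

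Nes stood at 7.38, 7.23 and 6.38 in the knockdown arrays, against 7.19, 7.37, 7.495 and 6.85 in the control arrays. Knockdown replicate 3 alone lay below all controls. The difference of -0.23 (SE 0.27, 95% interval -0.86 to 0.40; limma adjusted p = 0.885) rested on that array, and was 0.08 without it. In that array the mean of 13 neuronal markers was 0.47 log2 units above the control mean, against -0.33 and -0.20 in knockdown replicates 1 and 2 and -0.09 to 0.13 in the controls. The markers were divided there, with 7 of the 13 above and 5 below all control arrays. The part of neurons in the Nes level was not tested.

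The members that serve metabolism and transport are Fabp7, the brain fatty acid-binding protein, Slc1a3, the glutamate transporter GLAST, and Ddah1, a hydrolase that breaks down the nitric oxide synthase inhibitor dimethylarginine. Fabp7 stood at 11.17, 11.55 and 11.58 in the knockdown arrays, against 11.45, 11.51, 10.93 and 10.93 in the control arrays. Knockdown replicates 2 and 3 lay just above the higher pair of controls, and knockdown replicate 1 lay between the pairs. The difference was 0.23 (SE 0.20, 95% interval -0.25 to 0.70; limma adjusted p = 0.853), and 0.13 without either control replicate 3 or control replicate 4 and 0.36 without knockdown replicate 1.

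Slc1a3 stood at 7.84, 7.65 and 7.22 in the knockdown arrays, against 7.503, 7.89, 7.19 and 7.20 in the control arrays, so that every knockdown array lay within the range of the controls. The difference of 0.12 (SE 0.22; limma adjusted p = 0.920) turned to -0.01 without knockdown replicate 1. Ddah1 stood at 9.88, 10.18 and 10.18 in the knockdown arrays, against 9.91, 10.24, 10.03 and 9.61 in the control arrays, again within the control range. Its difference was 0.14 (SE 0.17; limma adjusted p = 0.893), 0.02 without control replicate 4, and -0.03 without both knockdown replicate 2 and control replicate 4, the arrays with the highest choroid plexus markers, a setting chosen after the data were seen.

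Mfge8 encodes a secreted protein that binds integrins and phosphatidylserine, and Ednrb the endothelin receptor B. Mfge8 stood at 7.21, 7.05 and 7.06 in the knockdown arrays, against 7.11, 7.23, 6.22 and 7.04 in the control arrays. A single array, control replicate 3, lay far below the rest, and the difference of 0.20 (SE 0.24; limma adjusted p = 0.886) was -0.02 without it. The mean of the endothelial and mural markers was also lowest in that array, at 4.21. That mean was 4.61 and 4.57 in control replicates 1 and 2, where Mfge8 stood at 7.11 and 7.23. The part of endothelial and mural cells in the Mfge8 level was not tested.

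Ednrb varied most, with 7.30, 7.99 and 6.33 in the knockdown arrays against 6.69, 7.48, 7.15 and 7.76 in the control arrays. Both the highest and the lowest of all 7 values were knockdown arrays. The pooled SD within groups was 0.637, higher than for 94.0% of all genes, while for the other members it ran from 0.205 to 0.403. The difference was -0.06 (SE 0.41; limma adjusted p = 0.982), with a 95% interval from -1.02 to 0.90. The highest values were in knockdown replicate 2 and control replicate 4, the arrays with the highest microglia and choroid plexus markers, and the part of those cells was not tested.

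The transcription factors Sox2, which maintains neural progenitors, and Sox9, a related factor of neural stem cells and glia, did not differ beyond their spread. Sox2 stood at 9.15, 9.37 and 8.72 in the knockdown arrays, against 9.09, 9.48, 9.14 and 8.62 in the control arrays. Its group means were 9.08 ± 0.334 (SD, n = 3) in knockdown samples and 9.08 ± 0.354 (SD, n = 4) in controls, a difference of -0.0025 (SE 0.23, 95% interval -0.55 to 0.55; limma adjusted p = 0.999). Sox9 stood at 8.59, 8.80 and 8.29 in the knockdown arrays, against 8.80, 8.74, 8.68 and 8.42 in the control arrays. The difference was -0.10 (SE 0.16, 95% interval -0.47 to 0.27; limma adjusted p = 0.915), and 0.03 without knockdown replicate 3. For both factors the lowest arrays were knockdown replicate 3 and control replicate 4.

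**Figure D2:**
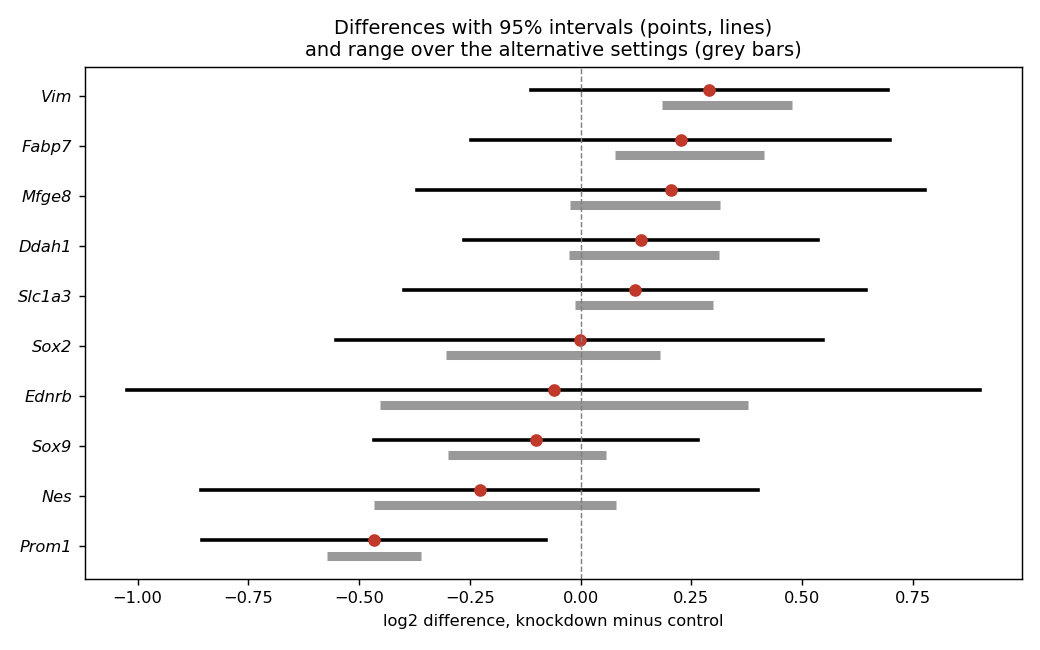
Log2 difference, knockdown minus control (horizontal axis), of each of the 10 radial glia genes, with red points for the estimate, black lines for limma's 95% interval and grey bars for the range of the estimate over 15 alternative settings. The interval of Prom1 alone lies below 0, and the grey bars of Vim, Fabp7 and Prom1 keep to 1 side of 0 while those of the other 7 genes cross it.

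Vim, Fabp7 and Ddah1 had positive differences under each scaling tried, but of different size. Over all genes with a mean level over 10, of which there were 299, the median log2 difference was -0.13, so most bright genes read slightly lower in knockdown samples. The 3 members in that range, Vim, Fabp7 and Ddah1, read higher, and their differences exceeded those of 96.7%, 95.3% and 93.6% of these genes. After cyclic loess normalization, which removes such trends with level, the differences were 0.48 for Vim, 0.41 for Fabp7 and 0.31 for Ddah1, and with the array medians set equal, which shifts the median of all genes by about 0.1 to -0.11, they were 0.18, 0.12 and 0.03. None passed under these settings. Among the 4843 genes with a mean level of 6 to 8, the difference of Prom1 was below that of 87.0% of genes and that of Nes below that of 65.1%, while Mfge8, Slc1a3 and Ednrb were above 83.0%, 75.9% and 54.4%. Among the 1837 genes with a mean level of 8 to 10, whose median difference was -0.17, Sox2 and Sox9 were above 75.8% and 61.2%.

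The spread of the members between arrays cut across the groups. Control replicate 2 held the highest value of 5 of the 10 genes, and all 10 stood above their control mean there. Knockdown replicate 2 followed, with 9 of 10 above. Knockdown replicate 3 and control replicate 4 were the low arrays, with a median of -0.30 and -0.26 log2 units from the control mean, and with 6 and 8 of the 10 genes below it. Knockdown and control arrays were thus found at both ends of this order.

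**Figure D3:**
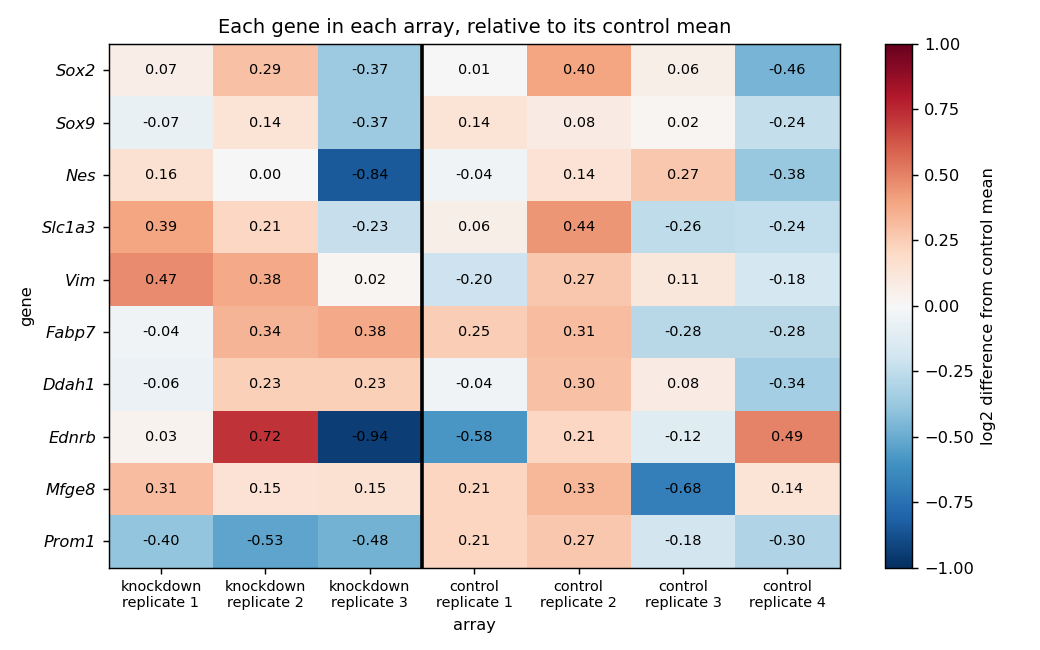
Log2 level of each of the 10 radial glia genes (rows) minus its control mean, in the 3 knockdown arrays (left of the black line) and the 4 control arrays (right), with red above and blue below the control mean. Prom1 is below its control mean in all knockdown arrays, and the column of control replicate 2 is above it for all 10 genes.

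Of the 45 pairs of members, 38 had a positive Pearson correlation over the 7 arrays, with a median r of 0.36, and by exact permutation tests 4 pairs had an unadjusted and 0 an adjusted p under 0.05. The highest was that of Sox2 and Sox9 (r = 0.85, exact permutation p = 0.0222, adjusted p = 0.460 over the 45 pairs; Spearman's rho = 0.59, exact permutation p = 0.173, adjusted p = 0.867). It fell to r = 0.33 without control replicate 4 and knockdown replicate 3. Nes and Sox9 had r = 0.81 and rho = 0.34 (exact permutation p = 0.0278 and 0.456, adjusted p = 0.460 and 0.867), and r = -0.71 without the same arrays, so that this relation turned. Slc1a3 and Sox2 had r = 0.77 and rho = 0.75 (exact permutation p = 0.0391 and 0.0663, adjusted p = 0.460 and 0.867), and r = 0.75 without control replicate 2 and knockdown replicate 1. Nes and Sox2 had r = 0.77 and rho = 0.64 (exact permutation p = 0.0409 and 0.139, adjusted p = 0.460 and 0.867), and r = -0.05 without knockdown replicate 3 and control replicate 4. The arrays left out were those farthest from the median of the first gene named in each pair, so they differ between pairs. Leaving them out narrows the range, which can lower r by itself. The values therefore cannot be compared between pairs with different arrays left out. Fabp7 paired best with Ddah1 (r = 0.73), and Vim and Prom1 had the lowest r of all pairs, -0.31.

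The 5 other genes whose profile over the 7 arrays was most like the mean profile of the members were Jade1, Parn, Atad2, Kif24 and Mcm4, with Pearson r of 0.97, 0.97, 0.96, 0.96 and 0.96 among 9958 genes above the median level. They were picked for these values, which are a description. Jade1 is a subunit of a histone acetyltransferase complex, Parn an enzyme that removes poly(A) tails, Atad2 a chromatin ATPase, Kif24 a kinesin of centrioles, and Mcm4 a subunit of the replicative helicase. Mcm4 stood at 8.09, 8.16 and 7.30 in the knockdown arrays, against 7.65, 8.25, 7.61 and 7.61 in the control arrays, high in the replicates numbered 2 and lowest in knockdown replicate 3.

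The 30 other genes of radial glia that were measured were set beside the members, among them receptors and effectors of Notch and FGF signalling, patterning factors and metabolic genes. By limma 0 of the 30 passed, and 12 were higher and 18 lower. The differences ran from -0.61 to 0.73, with a median of -0.04. The largest positive ones were those of Fgfr3 (0.73, SE 0.35), Ptprz1 (0.69, SE 0.37) and Notch1 (0.55, SE 0.24), all with groups that overlapped. An unadjusted p under 0.05 was found for 3, all lower, where 3.61% of all genes were lower at that p. Emx1, a homeobox factor of the dorsal cortex, stood at 7.68, 7.26 and 7.58 in the knockdown arrays, against 7.85, 7.91, 7.85 and 7.85 in the control arrays (log2 difference -0.36, SE 0.12, limma adjusted p = 0.825), and its groups did not overlap. The Emx1 difference was -0.23 without knockdown replicate 2 and -0.22 after cyclic loess. The glycolytic enzyme Aldoc and the serine synthesis enzyme Psat1 differed by -0.57 (SE 0.22) and -0.57 (SE 0.23) with groups that overlapped, and Aldoc by -0.36 without knockdown replicate 2. The brightest genes of the list, the acyl-CoA-binding protein gene Dbi and the growth factor gene Ptn, differed by -0.03 (SE 0.13) and 0.10 (SE 0.18).

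Relatives of the members from the same gene families gave 0 of 23 past the test, with 13 higher and 10 lower and a median of 0.01. Their groups did not overlap for 5 genes, 4 with the knockdown arrays above and 1 with them below. Of all genes 5.67% did not overlap, 2.59% with the knockdown arrays above and 3.07% with them below. Slc1a2, the glutamate transporter GLT-1, stood at 5.01, 5.61 and 7.02 in the knockdown arrays, against 4.83, 4.83, 4.47 and 4.58 in the control arrays, a difference of 1.202 (SE 0.43), and of 0.63 without knockdown replicate 3. Slc1a4, which carries neutral amino acids, differed by 0.75 (SE 0.30), with knockdown replicate 1 highest at 7.04, and the difference was 0.35 without that array. Sox11, a factor of young neurons, stood at 10.70, 10.63 and 10.55 in the knockdown arrays, against 10.90, 10.87, 10.98 and 10.94 in the control arrays (-0.30, SE 0.10). Its relative Sox4 differed by -0.19 (SE 0.12). Sox5 differed the other way, by 0.29 (SE 0.12), with every knockdown array above every control array. Ddah2, the second dimethylarginine hydrolase, differed by -0.43 (SE 0.17) and Fabp5 by -0.28 (SE 0.16), where Ddah1 and Fabp7 differed by 0.14 and 0.23. After cyclic loess the differences were smaller, at -0.11 for Sox11, -0.01 for Sox4, -0.25 for Ddah2 and -0.10 for Fabp5, and that of Fabp5 was -0.17 without knockdown replicate 3. Whether the relatives differ from the members was not tested, and limma's adjusted p of each named relative was at least 0.825.

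Partners of the members, namely endothelin ligands and their processing enzymes, nitric oxide synthases, integrins that bind Mfge8, cofactors of the Sox proteins and others, gave 0 of 21 past the test, with 11 higher and 10 lower and a median of 0.02. The endothelin-converting enzyme gene Ece2 differed by -0.71 (SE 0.26), by -0.28 over the mean of its probe sets and by -0.40 without knockdown replicate 3. The nitric oxide synthase gene Nos3, which is typical of endothelium, had a difference of 0.51 (SE 0.22), which became 0.23 once knockdown replicate 1 was left out. Pou3f2, a POU factor that acts with Sox2, stood at 7.69, 8.08 and 8.09 in the knockdown arrays, against 8.32, 8.50, 8.40 and 8.15 in the control arrays (-0.39, SE 0.15), without overlap. The Pou3f2 difference was -0.20 over the mean of its probe sets, -0.24 after cyclic loess and -0.25 without knockdown replicate 1. Ezr, which encodes the apical membrane linker ezrin, differed by -0.56 (SE 0.27). Its level was highest in control replicate 4, at 9.61, and the difference was -0.38 without that array. Ezr and Nos3 are also expressed outside radial glia, Nos3 in endothelium and Ezr in choroid plexus, and the part of those cells was not tested.

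The later cells of the lineage were followed by lists of their own. The 10 intermediate progenitor markers had a median difference of -0.11, with 3 higher and 7 lower, and the 13 neuronal markers one of -0.07, with 6 higher and 7 lower, and 0 genes of either list passed. Of the neuronal markers, 4 had groups that did not overlap and an unadjusted p under 0.05 by limma, where 5.67% of all genes did not overlap, and they were named after their values were seen. Neurod6 and Neurod2, transcription factors of cortical projection neurons, and Dcx, a microtubule protein of young neurons, were lower in knockdown samples, with differences of -0.71 (SE 0.13), -0.59 (SE 0.16) and -0.52 (SE 0.19). After cyclic loess normalization these 3 differences were smaller, at -0.52, -0.42 and -0.34, and that of Dcx was -0.36 without knockdown replicate 1. Syt1, a calcium sensor of synaptic vesicles, was higher, with a difference of 1.12 (SE 0.31), or 0.72 without knockdown replicate 3. The limma adjusted p of each was 0.825. All 8 endothelial and mural markers, all 6 microglia markers, all 4 erythroid markers and all 6 interneuron markers had positive differences in knockdown samples, with medians of 1.27, 0.23, 0.79 and 1.21, as did all 5 meningeal and fibroblast markers, with a median of 0.17. Single arrays weighed heavily in these signs. In knockdown replicates 1 to 3 the mean of the microglia markers stood at -0.06, 1.02 and -0.20 log2 units from the control mean. That of the interneuron markers stood at 0.51, 2.42 and 0.26, and that of the endothelial and mural markers at 2.35, 1.14 and 0.11. All 4 choroid plexus markers had negative differences, with a median of -0.43, and 0 genes of these lists passed. The control mean of the choroid plexus markers was raised by control replicate 4, where their mean stood 3.54 log2 units above it. Their mean stood at -1.72 to -0.19 in the other control arrays, and at -1.59, 1.90 and -1.59 in the knockdown arrays. The mean of the 4 erythroid markers was 7.76, 8.91 and 8.61 in the knockdown arrays, against 7.31, 7.39, 7.19 and 8.53 in the control arrays.

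**Figure D4:**
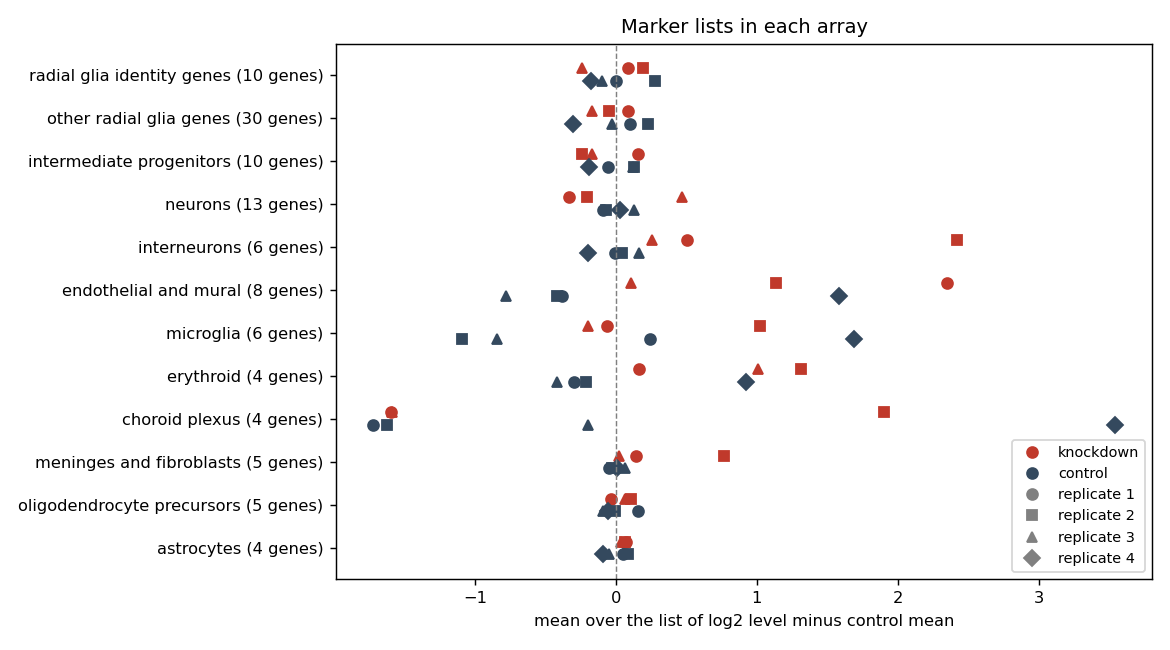
Mean over each marker list of the log2 level minus the control mean (horizontal axis), with 1 point per array, red for knockdown and dark blue for control, and marker shape for the replicate number. The radial glia rows stay within -0.30 to 0.28 in all arrays, whereas the choroid plexus row reaches 3.54 in control replicate 4 and the endothelial and mural row 2.35 in knockdown replicate 1.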

How the data were processed

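RNA of sorted cells from 7 samples was labelled after whole-transcriptome amplification and hybridised to 1 array each, per the labels' protocols. According to the submitters' processing notes, the authors made the deposited log2 values by RMA with Affymetrix Expression Console 1.2. This method corrects background, equalises the distribution of probe values between arrays and summarises each probe set, and differences of dim probe sets come out compressed. The annotation's genome build was not given in the sources used here. Of 35556 probe sets, 21789 had 1 gene symbol. Symbols were updated through Entrez identifiers in RefSeq (21698 matched), and the probe set with the highest mean stood for each of 19938 genes. No arrays were identical. With arrays, precision depends on how many there are.

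The groups were compared with limma 3.58.1 (R 4.3.3), two-sided and without covariates, with Benjamini-Hochberg adjustment over the 19938 genes and a threshold of 0.05. The fit was run on simulated data with differences larger than those of the members, so that run does not show the power at the members' size. SEs and 95% intervals are limma's. The exact permutation test compared group means over the 35 splits of 7 arrays into 3 and 4. Correlations used all 5040 orderings of the arrays. P-values measure the spread between samples whose separate origin the labels state only as biological replicates.

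The members and gene lists were chosen with earlier results of these data known. Named genes are Trnp1, all members, the 3 genes of smallest p and the 2 brightest of the radial glia list, the 4 of smallest p of the relatives and of the partners, and relatives with a mean level over 8. Lists of other cell types are given by counts and levels, with 4 neuronal genes named after their values were seen. Fgfr3, Ptprz1, Notch1 and Sox5 were also named after their values were seen, and are given for the fit as reported only. Intensity trend, scaling, filtering, probe set choice, replicate number and single arrays were varied.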

Additional observations from a re-analysis of the deposited data

How the results depend on the processing

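By limma, 0 genes passed over all genes under each alternative, including an adjusted p under 0.1, while the count at an unadjusted p under 0.05 was 1158 as reported, 1690 with the array medians set equal and 2404 without knockdown replicate 2. No radial glia gene passed under any of the 15 alternatives fitted for it, and 131 of these 150 values kept their sign. That count includes settings that could not change a sign. The intensity trend, the filter on dim genes and the mean over probe sets left every member's difference as it was. The replicate block gave the members the same differences as leaving out control replicate 4. The median of the 10 differences was 0.06 as reported, -0.05 with the array medians set equal, 0.21 after a further quantile normalization and 0.20 after cyclic loess normalization, and lay between -0.034 and 0.18 with 1 array left out. It was -0.16 without knockdown replicate 2 and control replicate 4 together, an alternative added after the data were seen. Prom1, Vim and Fabp7 kept their sign throughout, Prom1 between -0.57 and -0.36, Vim between 0.18 and 0.48, and Fabp7 between 0.077 and 0.41. The unadjusted limma p of Prom1 was under 0.05 as reported and under 8 of the 15 alternatives, and 0.0511 to 0.0874 under the other 7. That of Vim, 0.134 as reported, was under 0.05 under 3, namely 0.0094 after cyclic loess, 0.027 after a further quantile normalization and 0.046 without knockdown replicate 3. That of the other 8 members was under 0.05 in 0 settings.

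After a further quantile normalization the sign turned for Sox2 (0.17), Sox9 (0.047), Ednrb (0.028) and Dbi (0.041), and after cyclic loess for Sox2 (0.16), Sox9 (0.058), Ednrb (0.048) and Dbi (0.16). Ptn was -0.011 with the array medians set equal. Leaving out 1 array turned Sox2 (0.017 to 0.18 without control replicate 2, control replicate 3 or knockdown replicate 3, among them 0.13), Ednrb (0.008, 0.10 and 0.38 without control replicate 2, control replicate 4 and knockdown replicate 3), Dbi (0.035, 0.018 and 0.0025 without control replicate 2, control replicate 3 and knockdown replicate 3), Sox9 (0.033) and Nes (0.079) without knockdown replicate 3, Slc1a3 (-0.012) without knockdown replicate 1, Mfge8 (-0.023) without control replicate 3 and Ptn (-0.020) without control replicate 1. Without knockdown replicate 2 and control replicate 4 together, Slc1a3 (-5e-04), Ddah1 (-0.027) and Ptn (-0.009) turned. The cause was not tested. At the other end, leaving out 1 array gave -0.42 for Nes, 0.30 for Slc1a3, -0.22 for Sox9, 0.32 for Mfge8, -0.45 for Ednrb and -0.097 for Dbi.

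With the replicate number as a block, over replicates 1 to 3 of both groups, 0 genes passed, Ednrb was 0.10, Prom1 was -0.57 (adjusted p = 0.665 by limma), and the count at an unadjusted p under 0.05 was 1486. The deviations of same-numbered samples had r of 0.062, 0.026 and -0.025 over genes, and those of samples with unlike numbers -0.089 to 0.082. The labels do not say whether a number marks a shared litter or day, and these few values cannot decide it. The precision is limited by 3 and 4 arrays per group, and differences of dim probe sets are compressed.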
